A study of Mus musculus with 59 samples.

Results

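The 4 EGR transcription factors Egr1, Egr2, Egr3 and Egr4 and their corepressors Nab1 and Nab2 were examined in the prefrontal cortex of young mice. They are the 6 genes, of 18088 in the deposited table, whose Ensembl identifiers map to these symbols, and all 6 passed the filter on low values. RNA was sequenced from 30 mice heterozygous for the Dyrk1a I48X allele (Dyrk1a+/I48X, called heterozygous here) and 29 wild-type mice, all C57BL/6J. Dyrk1a encodes a protein kinase, and I48X names a stop codon in place of an isoleucine. Lithium, the serotonin reuptake inhibitor fluoxetine or vehicle reached male and female pups in the dam's milk from postnatal day 3 to day 24, and tissue was taken on day 25. The heterozygous groups were 10 lithium, 10 fluoxetine and 10 vehicle mice, and the wild-type groups were 10 lithium, 9 fluoxetine and 10 vehicle mice, with 5 of each sex except for 4 wild-type fluoxetine males. The labels name no dams or litters and state no dose. Pups of 1 dam share its drug, so litter and drug cannot be told apart, and each p-value reflects no more than how these mice varied.

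EGR proteins are zinc-finger transcription factors that bind a GC-rich site, written GCGNGGGCG. Their genes are immediate-early genes: synaptic activity and growth factors switch them on within minutes, through the MAP kinase cascade, serum response factor with its ternary complex partners such as Elk1, and CREB. Egr1 is widely used as a marker of neuronal activity in cortex and is needed for lasting synaptic plasticity. Egr2 is best known for hindbrain patterning and for myelination by Schwann cells, Egr3 is induced by activity in cortical neurons, and Egr4 is an activity-induced relative. Nab1 and Nab2 bind Egr1, Egr2 and Egr3 through an inhibitory domain that Egr4 lacks, and they recruit chromatin repressors. Nab2 is itself induced by EGR factors, which closes a feedback loop, whereas Nab1 is expressed more constantly.

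On GRCm38, Egr2 (ENSMUSG00000037868) lies at chr10:67535475-67542188 on the plus strand. Egr3 (ENSMUSG00000033730) lies at chr14:70077203-70082614 on the plus strand and Egr4 (ENSMUSG00000071341) at chr6:85511121-85513589 on the minus strand. Nab1 (ENSMUSG00000002881) lies at chr1:52457294-52500679 and Nab2 (ENSMUSG00000025402) at chr10:127660918-127668568, both on the minus strand. Nab2 is the member with neighbours on the opposite strand that overlap it: Nemp1 by 1668 bases, the antisense transcript Gm16229 by 1646 and Stat6 by 40. The kit preserved strand, but the sources used here do not state whether the counting used it, so reads of Nab2 and these neighbours may be mixed.

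Promoter sequences of 4 members, from 250 bases before to 50 bases after an annotated start, were taken from RefSeq on GRCm38.p6. They are shown as a description. They differ in matches to the sites of the factors that drive immediate-early genes and of EGR factors themselves. A link of these matches to the drug changes was not tested. Capitals mark letters of 3 motifs searched on both strands: TGACG, the core of the CREB site (CGTCA on the other strand); the CArG box of serum response factor; and the EGR site GCGNGGGCG. The Egr2 window shown, chr10:67537619-67537918 (plus strand), is 1 of 5 listed for the gene, and those of Egr4, Nab2 and Nab1 are chr6:85513540-85513839, chr10:127666654-127666953 and chr1:52500399-52500698 (minus strand).
Egr2: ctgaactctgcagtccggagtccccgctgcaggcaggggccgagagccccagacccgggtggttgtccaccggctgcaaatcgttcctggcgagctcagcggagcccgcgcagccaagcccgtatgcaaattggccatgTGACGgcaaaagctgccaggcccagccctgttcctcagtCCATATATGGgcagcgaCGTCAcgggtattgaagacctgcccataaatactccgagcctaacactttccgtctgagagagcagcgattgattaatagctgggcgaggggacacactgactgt
Egr4: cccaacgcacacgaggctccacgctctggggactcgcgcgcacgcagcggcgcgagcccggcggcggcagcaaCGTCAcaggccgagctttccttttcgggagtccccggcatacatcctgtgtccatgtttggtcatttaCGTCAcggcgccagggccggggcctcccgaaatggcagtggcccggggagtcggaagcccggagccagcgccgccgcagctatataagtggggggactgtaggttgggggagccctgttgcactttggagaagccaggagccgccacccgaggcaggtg
Nab2: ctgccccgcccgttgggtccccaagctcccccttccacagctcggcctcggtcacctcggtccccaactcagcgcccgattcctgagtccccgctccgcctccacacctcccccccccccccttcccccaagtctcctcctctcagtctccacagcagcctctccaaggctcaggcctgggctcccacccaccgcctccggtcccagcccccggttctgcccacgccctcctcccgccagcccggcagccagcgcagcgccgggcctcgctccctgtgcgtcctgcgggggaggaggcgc
Nab1: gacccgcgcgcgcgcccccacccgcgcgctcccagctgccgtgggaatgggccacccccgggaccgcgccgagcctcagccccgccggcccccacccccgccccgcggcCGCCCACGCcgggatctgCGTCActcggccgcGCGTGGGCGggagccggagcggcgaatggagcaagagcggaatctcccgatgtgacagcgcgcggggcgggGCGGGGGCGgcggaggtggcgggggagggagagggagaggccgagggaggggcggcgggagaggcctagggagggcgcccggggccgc

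The Egr2 window held 2 copies of TGACG with a CArG box between them, the Egr4 window held 2 copies of TGACG, and the Nab2 window held none of the 3 motifs. The Nab1 window held 3 EGR sites and 1 TGACG. No marked sites overlapped. Of 32817 promoter windows of the same length in the same table, 20.79% held TGACG, 1.63% a CArG box and 5.555% the EGR site. The full palindrome TGACGTCA, in 1.792% of windows, was in none of these 4. A second Egr2 window, chr10:67537316-67537615, held another CArG box and 3 copies of the ETS-type core CCGGAA, of which 2 overlapped; 14.88% of windows held that core. A further Egr2 window, chr10:67535249-67535548, held none of the motifs searched. These are matches of letters in these windows and say nothing of binding.

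The levels of the members spanned a wide range. Per kilobase of exon, the median over the 59 libraries was 1217 normalised counts for Egr1, 703 for Egr3, 333 for Nab2, 230.2 for Nab1, 229.5 for Egr4 and 61.1 for Egr2. A normalised count is the deposited value, a read count divided by a size factor of the library. Egr1 was thus the most abundant member and Egr2 the least, while Nab1 and Egr4 were at the same level per length.

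Libraries held 24391022 to 33842466 counts (median 27601196), and replicates differed by more than counting error. Dyrk1a had 2182.4 to 4214 normalised counts over all heterozygous fluoxetine mice, 2141 to 2530.4 in heterozygous lithium mice and 2239.7 to 2415 in heterozygous vehicle mice, against 2066 to 2327 in the wild-type mice. A stop codon need not lower the RNA, so this level does not check the genotype labels. The markers of cortical neurons were at 64330.3 summed normalised counts or more in each library. Olfactory bulb markers varied widely, with summed levels of 1385 to 42536, and averaged 0.61 log2 units above the mean of all libraries in heterozygous vehicle mice but 1.04 below it (-1.04) in wild-type vehicle mice. Heterozygous fluoxetine males 3 and 4 stood apart: their Dyrk1a levels were 4214 and 3278, against 2066 to 2530.4 in the other 57 libraries. Results that rest on this pair are given with and without it.

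**Figure D1:**
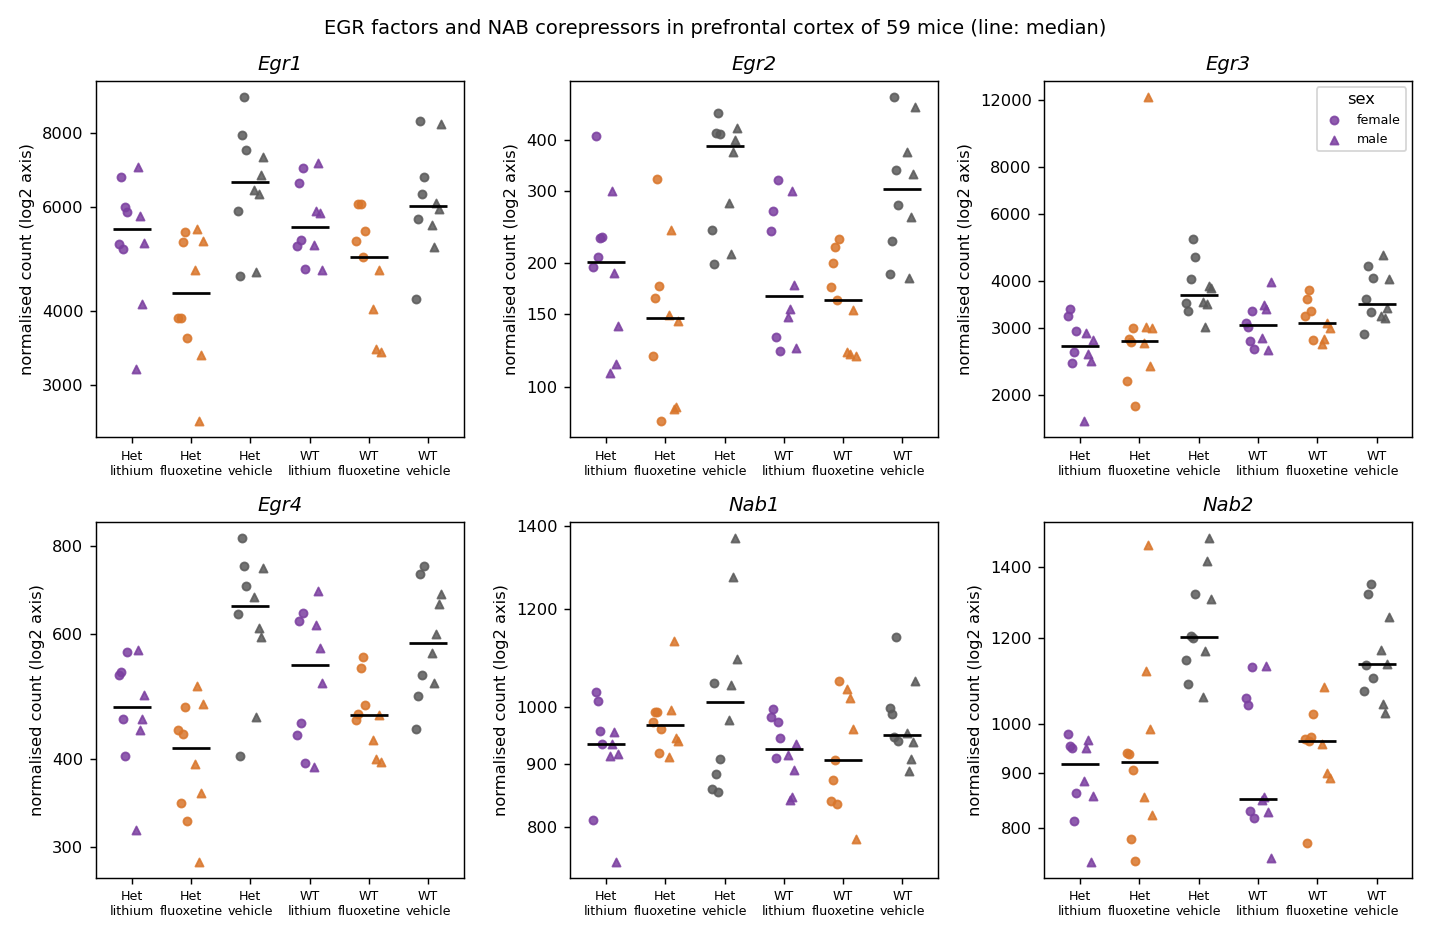
Normalised counts of each member in each mouse on a log2 axis, with circles for females, triangles for males and a line at the median of each genotype and drug. The median of each member is lower under both drugs than under vehicle in both genotypes, by little for Nab1. The single Egr3 value of 12221 belongs to heterozygous fluoxetine male 3.

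Egr2 had the largest fitted log2 change of the 6 under each drug, although differences between members were not tested. In heterozygous mice it had 82.4, 147 and 322 normalised counts (lowest, median, highest) under fluoxetine, against 199, 387 and 465 under vehicle. Of the 10 fluoxetine mice, 8 were below every vehicle mouse, and all 10 were below the vehicle mean of their sex. In wild-type mice the same values were 119, 163 and 229.7 under fluoxetine, against 184, 304 and 509 under vehicle, with 6 of 9 fluoxetine mice below every vehicle mouse. Under lithium, Egr2 had 108, 202 and 409 in heterozygous mice, against the same 199, 387 and 465 under vehicle. In wild-type mice lithium values were 122, 166 and 320.04, against 184, 304 and 509 under vehicle. The groups overlapped in each of these comparisons.

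Fold changes were fitted with limma on log2(normalised count + 1), with p-values adjusted by Benjamini-Hochberg over 17901 genes and a threshold of 0.05. Standard errors follow the ± sign. Egr2 fell by 1.19 ± 0.23 log2 units with fluoxetine in heterozygous mice (limma adjusted p = 0.00264), and its change in wild-type mice was -0.92 ± 0.23 (limma adjusted p = 0.0532). Averaged over the genotypes, Egr2 fell by 1.05 ± 0.16 with fluoxetine (limma adjusted p = 6.65e-05) and by 0.71 ± 0.16 with lithium (limma adjusted p = 0.00692). Within the genotypes, the lithium changes of -0.74 ± 0.23 in heterozygous mice and -0.68 ± 0.23 in wild-type mice did not pass (limma adjusted p = 0.150 and 0.339). Lithium and fluoxetine groups were compared with the same vehicle mice, so their changes are not independent of each other.

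Of the 6 members, 4 fell with fluoxetine in heterozygous mice (Egr1, Egr2, Egr4 and Nab2), where 4.27% of all genes tested were called and 2.06% were called lower. In wild-type mice no member passed under fluoxetine in the limma test, where 0.447% of genes were called. There 4 members had an unadjusted p under 0.05, and edgeR's quasi-likelihood test called 1, Egr2. In a fit of the wild-type fluoxetine and vehicle groups alone, Egr1, Egr2, Egr4 and Nab2 were lower (limma adjusted p = 0.0115 to 0.0345; 1151 genes called). Over both genotypes the same 4 members fell with fluoxetine, against 3.09% of genes called and 1.64% called lower. With lithium, Nab2 fell in heterozygous mice (1 of 6 members; 0.497% of genes called), no member passed in wild-type mice (0.162% of genes called; 2 members at an unadjusted p under 0.05 and 0 by edgeR), and Nab2 and Egr2 fell over both genotypes (2.12% of genes called, 0.966% lower). Each of the 6 fitted changes was below 0 in each of these 6 comparisons, while the median change over all genes lay within 0.01 of 0. Fewer cells of a type and less RNA per cell cannot be told apart in this tissue RNA.

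Without heterozygous fluoxetine males 3 and 4, fluoxetine still called 4 members in heterozygous mice, but not the same 4. Egr2, Egr4 and Nab2 were again lower and Egr3 was added, at -0.50 ± 0.10 (limma adjusted p = 0.00826), while Egr1 no longer passed, at -0.46 ± 0.13 (limma adjusted p = 0.102). The number of genes called fell to 76 there, against 764 with the pair. Over both genotypes 5 members were lower without the pair, the 4 named and Egr3 (-0.36 ± 0.07, limma adjusted p = 0.00134). The shares given above for that comparison, 3.09% called and 1.64% called lower, are from the fit with all libraries and not from this one. The share for the fit without the pair is not given here, so 5 members in place of 4 does not show a change particular to the members. When the fit held the heterozygous fluoxetine and vehicle groups alone, no member passed and 2 genes did, with Egr2 and Egr4 at an adjusted p of 0.084.

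Egr1 and Egr4 also fell with fluoxetine in heterozygous mice, with smaller fitted changes than Egr2. Egr1 (ENSMUSG00000038418) lies at chr18:34859823-34864984 on the plus strand of GRCm38. Egr1 had 2607, 4292 and 5506 normalised counts (lowest, median, highest) under fluoxetine in heterozygous mice, against 4586, 6606 and 9206 under vehicle. In wild-type mice it had 3414, 4943 and 6071 under fluoxetine, against 4186, 6017 and 8396 under vehicle. The groups overlapped in both genotypes, with 5 of 10 heterozygous and 3 of 9 wild-type fluoxetine mice below every vehicle mouse of their genotype. Egr1 fell by 0.62 ± 0.13 log2 units in heterozygous mice (limma adjusted p = 0.00617), and its change was -0.40 ± 0.14 in wild-type mice (limma adjusted p = 0.122). Over both genotypes it fell by 0.51 ± 0.09 (limma adjusted p = 0.000822).

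Under lithium Egr1 did not pass. It had 3190.4, 5498 and 7000.5 in heterozygous mice, against 4586, 6606 and 9206 under vehicle, and 4698, 5560 and 7119 in wild-type lithium mice, against 4186, 6017 and 8396 under vehicle. These groups overlapped widely, and the change over both genotypes was -0.20 ± 0.09 (limma adjusted p = 0.317).

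Egr4 had 286, 414 and 507 normalised counts under fluoxetine in heterozygous mice, against 404, 659 and 821 under vehicle. In wild-type mice it had 396, 462 and 558 under fluoxetine, against 440.2, 582 and 751 under vehicle. All 10 heterozygous and all 9 wild-type fluoxetine mice lay below the vehicle mean of their sex, although the ranges overlapped. Egr4 fell by 0.65 ± 0.12 log2 units in heterozygous mice (limma adjusted p = 0.00212) and by 0.51 ± 0.09 over both genotypes (limma adjusted p = 0.000236), and its change in wild-type mice was -0.36 ± 0.12 (limma adjusted p = 0.126). Under lithium, Egr4 had 317, 474 and 571 in heterozygous mice, against 404, 659 and 821 under vehicle, and 389, 543 and 691 in wild-type mice, against 440.2, 582 and 751 under vehicle. Its lithium change over both genotypes, -0.29 ± 0.09, lay just outside the threshold (limma adjusted p = 0.0535). It passed when any 1 of 10 libraries was left out, with the strongest change, -0.34, without heterozygous vehicle female 2 (limma adjusted p = 0.0139 to 0.0479).

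Egr3 depended on a single library. Under fluoxetine the 10 heterozygous mice had 1873, 2782 and 12221 normalised counts (lowest, median, highest), against 3031, 3676 and 5168 under vehicle. The value of 12221 came from male 3; the other 4 heterozygous fluoxetine males had 2381 to 3017. The other 9 heterozygous fluoxetine mice were below every heterozygous vehicle mouse. With that library the change was -0.32 ± 0.15 (limma adjusted p = 0.190), and without it -0.53 ± 0.10 (limma adjusted p = 0.00171). Over both genotypes the change with fluoxetine was -0.27 ± 0.11 (limma adjusted p = 0.152), and without that library -0.38 ± 0.07 (limma adjusted p = 0.000544).

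In that same mouse the other EGR factors were at the opposite end of their range. Egr1 (2607) and Egr4 (286) were at the lowest values of all 59 libraries, Egr2 (87.9) at the second lowest, and Nab2 (1467) at the second highest. Among 12582 genes with a mean of 100 or more, 59 exceeded their level in the other 4 males of the group by more than Egr3 did. Its olfactory bulb and striatal marker lists stood at -1.55 and 0.81 log2 units from the mean of all libraries, against -1.62 and 0.80 in male 4 and -0.83 and 0.70 in male 5; the part of these lists in the Egr3 value was not tested.

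Under lithium Egr3 had 1708, 2696 and 3372 normalised counts in heterozygous mice, against 3031, 3676 and 5168 under vehicle, with 8 of 10 lithium mice below every vehicle mouse. In wild-type mice it had 2629.5, 3057 and 3975 under lithium, against 2895, 3487 and 4685 under vehicle. The heterozygous change of -0.51 ± 0.15 did not pass with all 59 libraries (limma adjusted p = 0.131). It passed without heterozygous fluoxetine males 3 and 4, which are not in that comparison but enter the shared estimate of the spread: -0.51 ± 0.09 (limma adjusted p = 0.00162). Over both genotypes the value was -0.37 ± 0.11 (limma adjusted p = 0.05004) with all libraries and -0.37 ± 0.07 (limma adjusted p = 0.000272) without the pair. Leaving out any 1 of 8 libraries also took it past the threshold (-0.39 to -0.38; limma adjusted p = 0.0426 to 0.0498).

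**Figure D2:**
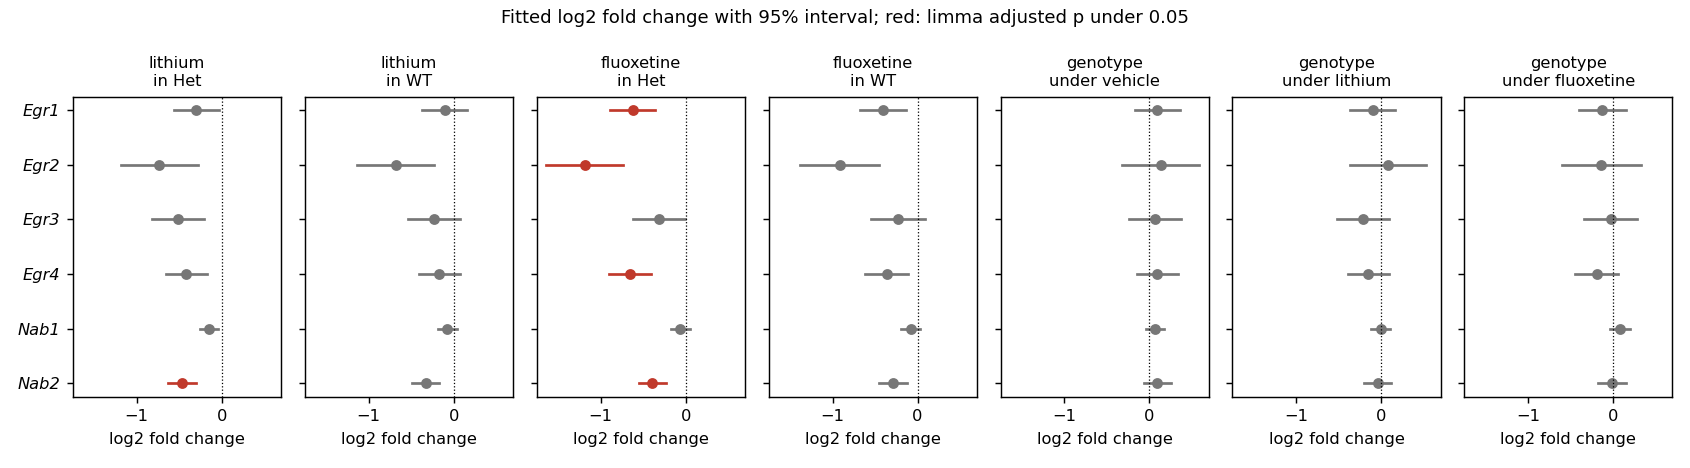
Fitted log2 fold change of each member (drug over vehicle, or heterozygous over wild type) with its 95% interval, in 7 comparisons; red marks a limma adjusted p under 0.05. Each drug value lies below 0 with the largest for Egr2, while genotype values lie within 0.22 of 0.

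The corepressors differed in their calls: Nab2 passed under both drugs and Nab1 under neither. Nab2 had 744, 916 and 979 normalised counts (lowest, median, highest) under lithium in heterozygous mice, against 1058, 1203 and 1488 under vehicle. These groups did not overlap: each of the 10 lithium mice was below each of the 10 vehicle mice. By limma 0.497% of genes were called in this comparison, and the share of all genes without overlap was not counted. Nab2 with lithium in heterozygous mice was the only member and drug comparison within a genotype in which the groups did not overlap. In wild-type mice Nab2 had 750.5, 851 and 1130.3 under lithium, against 1024, 1135 and 1347 under vehicle, with 6 of 10 lithium mice below every vehicle mouse.

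Nab2 fell by 0.47 ± 0.08 log2 units with lithium in heterozygous mice (limma adjusted p = 0.000878), the 8th smallest p of 17901 genes. In wild-type mice its change was -0.33 ± 0.08 (limma adjusted p = 0.0687), and over both genotypes it fell by 0.40 ± 0.06 (limma adjusted p = 1.21e-05; 7th smallest p). With fluoxetine it had 745, 922 and 1467 in heterozygous mice, against 1058, 1203 and 1488 under vehicle, and 775, 964 and 1083 in wild-type mice, against 1024, 1135 and 1347 under vehicle. Of these, 8 of 10 heterozygous and 8 of 9 wild-type fluoxetine mice were below every vehicle mouse of their genotype. The fall was 0.39 ± 0.08 in heterozygous mice (limma adjusted p = 0.00512) and 0.34 ± 0.06 over both genotypes (limma adjusted p = 0.000227), and the change in wild-type mice was -0.29 ± 0.08 (limma adjusted p = 0.0747). The overlapping neighbours Nemp1 and Stat6 did not pass: over both genotypes Nemp1 was at 0.06 ± 0.05 with lithium and 0.10 ± 0.05 with fluoxetine, and Stat6 at 0.10 ± 0.05 and -0.00 ± 0.05 (limma adjusted p = 0.241 to 0.981).

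Nab1, the other corepressor, had 750.1, 933 and 1028 normalised counts under lithium in heterozygous mice, against 853, 1009 and 1369 under vehicle, and 841, 924 and 996 under lithium in wild-type mice, against 888, 949 and 1138 under vehicle. Fluoxetine values were 911, 966 and 1131 in heterozygous mice and 782, 905 and 1050 in wild-type mice, against the same vehicle mice. The groups overlapped throughout, and over both genotypes the changes were -0.11 ± 0.04 with lithium and -0.07 ± 0.04 with fluoxetine (limma adjusted p = 0.129 and 0.311). The unadjusted 95% interval with lithium, -0.19 to -0.04, lay below 0, while that with fluoxetine, -0.15 to 0.01, included 0. A small decrease of Nab1 is thus not excluded under either drug.

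The balance of the corepressors is given as a description. The level of Nab2 over that of Nab1 in the same library averaged 0.977 ± 0.095 in heterozygous lithium mice and 0.975 ± 0.156 in heterozygous fluoxetine mice, against 1.22 ± 0.15 in heterozygous vehicle mice (SD, n = 10 each). In wild-type mice it averaged 1.01 ± 0.16 with lithium (SD, n = 10) and 1.03 ± 0.11 with fluoxetine (SD, n = 9), against 1.19 ± 0.08 with vehicle (SD, n = 10). Egr2 over Egr1 averaged 0.0381 ± 0.0095 with lithium and 0.0353 ± 0.0113 with fluoxetine in heterozygous mice, against 0.0509 ± 0.0072 with vehicle (SD, n = 10 each). Both ratios were lower on average under each drug, and the ranges of drug and vehicle mice overlapped.

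The order of the 6 conditions was alike for most members. By mean level, heterozygous vehicle was the highest condition for all 6 members. For Egr1, Egr2, Egr3, Egr4 and Nab2 wild-type vehicle came next. Heterozygous fluoxetine was lowest for Egr1, Egr2 and Egr4, and heterozygous lithium for Egr3, Nab1 and Nab2. Without heterozygous fluoxetine males 3 and 4, heterozygous fluoxetine was lowest for Egr1, Egr3, Egr4 and Nab2, wild-type fluoxetine for Egr2 and heterozygous lithium for Nab1. With all libraries no neighbours in any of these orders differed by more than the larger of their SDs. For Egr2 the nearest step to that was between wild-type vehicle mice, at 317 ± 113, and heterozygous lithium mice, the next lower, at 213 ± 90.5 (SD, n = 10 each). For Nab2 it was between wild-type vehicle mice, at 1161 ± 113, and heterozygous fluoxetine mice, at 956 ± 210 (SD, n = 10 each). Without the pair the drug group next to wild-type vehicle for Nab2 was wild-type fluoxetine, at 948 ± 87.0 (SD, n = 9), and that step of 213 exceeded the larger SD.

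Between the genotypes none of the 6 members passed. Under vehicle the log2 difference of heterozygous from wild-type mice was 0.09 ± 0.13 for Egr1, 0.13 ± 0.23 for Egr2, 0.06 ± 0.15 for Egr3, 0.09 ± 0.12 for Egr4, 0.07 ± 0.06 for Nab1 and 0.09 ± 0.08 for Nab2. This held in the limma test (adjusted p = 0.424 to 0.816; 0 at an unadjusted p under 0.05 and 0 by edgeR), where 13.1% of genes were called. That share rested on the fit: 2353 genes were called with all libraries, 4083 without heterozygous fluoxetine males 3 and 4, 139 with the vehicle groups alone and 2 with the olfactory bulb mean as a covariate, with no member among them in any of these. The 95% interval of the Egr2 difference ran from -0.32 to 0.59, so a moderate difference of that gene would not have been detectable. Under lithium the 6 differences ran from -0.21 ± 0.15 for Egr3 to 0.08 ± 0.23 for Egr2, and under fluoxetine from -0.20 ± 0.12 for Egr4 to 0.08 ± 0.06 for Nab1. No member passed in either (0.0112% of genes called in each; 0 members at an unadjusted p under 0.05 and 0 by edgeR).

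The drug responses of the genotypes were compared directly. The lithium change in heterozygous mice minus that in wild-type mice was -0.13 ± 0.11 for Nab2, -0.25 ± 0.17 for Egr4, -0.28 ± 0.22 for Egr3 and -0.06 ± 0.32 for Egr2. For fluoxetine it was -0.10 ± 0.11 for Nab2, -0.29 ± 0.17 for Egr4 and -0.27 ± 0.32 for Egr2. No member and no gene passed in either test (0% of genes called by limma; 0 members at an unadjusted p under 0.05 and 0 members by edgeR). A response of the members that differs by genotype was thus not shown. Which genotype had more members called with fluoxetine turned on the fit: 4 in heterozygous and 0 in wild-type mice with all 59 libraries, but 0 in heterozygous and 4 in wild-type mice when each pair of groups was fitted alone.

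Lithium and fluoxetine were also compared with each other in heterozygous mice. Egr1 was 0.32 ± 0.13 and Egr2 0.45 ± 0.23 log2 units higher under lithium than under fluoxetine, but neither passed (limma adjusted p = 0.135 and 0.223; 3.28% of genes called, 0 of 6 members, 1 at an unadjusted p under 0.05, 0 by edgeR). Without heterozygous fluoxetine males 3 and 4 the same differences were 0.16 ± 0.13 and 0.26 ± 0.24, and 21 genes were called, against 588 with the pair. With the groups compared alone 0 genes were called. These intervals do not show that the drugs act alike on these genes.

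Between the sexes 0 of 6 members were called over all groups, against 0.156% of genes. Egr1 and Egr2 were 0.16 ± 0.08 and 0.27 ± 0.13 log2 units higher in females than in males, which did not pass (limma adjusted p = 0.669 for each; 2 members at an unadjusted p under 0.05 and 0 by edgeR). Nab1 was the member called in the tests by sex, and its share of the 6 was close to the share of all genes called in the test of genotype. In females Nab1 had 858, 1045, 883, 853 and 907 normalised counts in heterozygous vehicle mice, against 998, 987, 946, 1138 and 938 in wild-type vehicle mice. In males it had 976, 1042, 1274, 1369 and 1093 in heterozygous vehicle mice, against 953, 888, 908, 937 and 1049.9 in wild-type vehicle mice. Heterozygous females were thus mostly below and heterozygous males mostly above their wild-type counterparts. The difference between the sexes, female minus male, was -0.41 ± 0.11 log2 units (limma adjusted p = 0.0174), 1 of 6 members in a comparison where 16% of genes were called. Of all genes, 2857 were called there, and 0 with the vehicle groups alone (Nab1 adjusted p = 0.0734) or with the olfactory bulb mean as a covariate. It did not pass without heterozygous vehicle male 3, heterozygous vehicle male 4 or wild-type vehicle female 4 (-0.37, -0.35 and -0.36; limma adjusted p = 0.0589 to 0.0666).

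The lithium change of Nab1 in heterozygous mice also differed by sex, by 0.42 ± 0.11 log2 units, female minus male (limma adjusted p = 0.0393; 1 of 6 members, 3.07% of genes called). Lithium mice had 810.4, 1028, 1012, 956 and 934 in females and 912, 933, 954, 750.1 and 916 in males, and these tests share the heterozygous vehicle mice given above. Heterozygous vehicle males 3, 4 and 5, with the highest Nab1 values of that group, also had the highest olfactory bulb list means (2.28, 2.26 and 1.73 log2 units above all libraries) and the lowest cortical neuron list means (-0.77, -0.66 and -0.25). Neither test passed once the mean of that list entered the fit as a covariate: -0.26 ± 0.11 (adjusted p = 0.968) for genotype under vehicle by sex and 0.35 ± 0.10 (adjusted p = 0.0692) for lithium by sex. The lithium difference also did not pass without any 1 of 12 of its libraries, which were lithium females 3, 4 and 5 and males 2, 4 and 5, and vehicle females 1, 3, 4 and 5 and males 3 and 4 (0.35 to 0.43; limma adjusted p = 0.0573 to 0.127).

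Mice of 1 group also differed among themselves, and the EGR factors did so together. After the mean of each genotype, drug and sex was removed, Egr1 correlated with Egr2 (Pearson r = 0.85, Spearman rho = 0.87) and with Egr4 (r = 0.82, rho = 0.78), and Egr2 with Egr4 (r = 0.69, rho = 0.67), over 59 libraries. Without the 2 libraries farthest from the median of the first gene, r was 0.86, 0.79 and 0.69. The adjusted permutation p was 5e-05 for each r, from the smallest p that 100000 resamples can give (1e-05), over 15 pairs of members tested. For rho the adjusted permutation p was 7.5e-05 for the pairs with Egr1 and 0.0001 for Egr2 with Egr4.

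**Figure D3:**
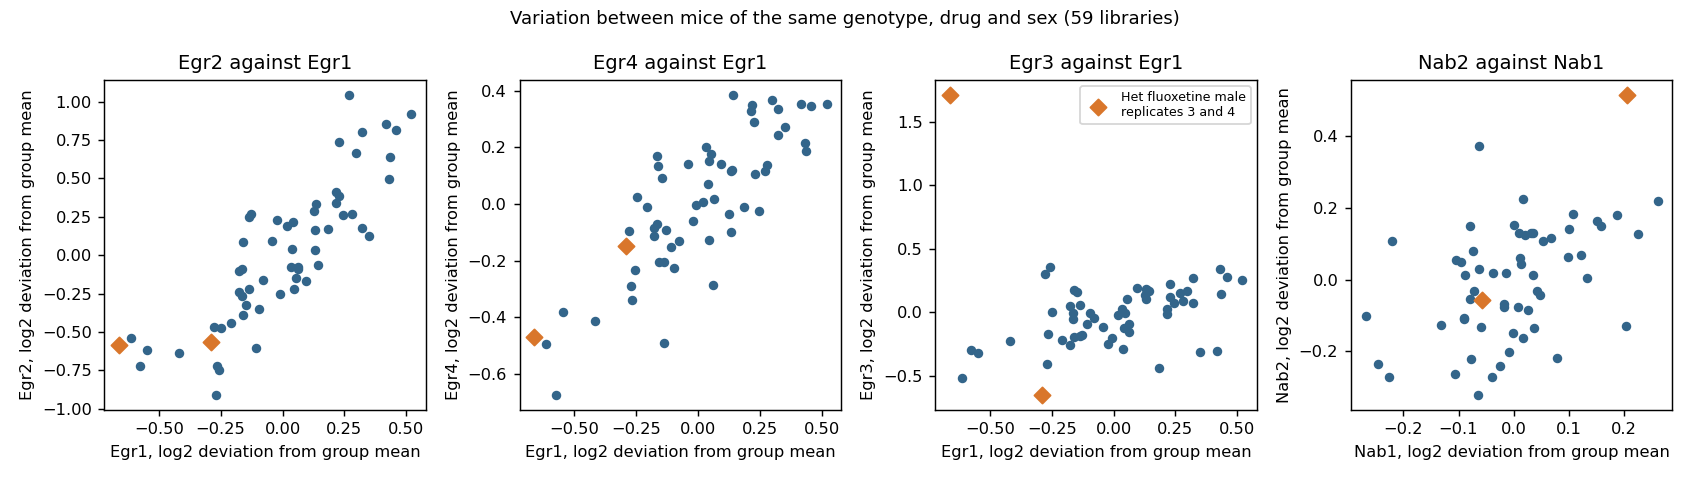
Deviation of each library from the mean of its genotype, drug and sex, in log2 units, for 4 pairs of members; diamonds mark heterozygous fluoxetine males 3 and 4. Egr2 and Egr4 rise with Egr1 (r = 0.85 and 0.82), and in the panel of Egr3 against Egr1 the diamond at the top left is male 3.

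The r of Egr3 with the other factors depended on the pair, while its rank correlations passed with all libraries. With all libraries Egr1 and Egr3 had r = 0.10 (adjusted permutation p = 0.754) and rho = 0.39 (adjusted permutation p = 0.0178), and without heterozygous fluoxetine males 3 and 4 r was 0.65 (adjusted permutation p = 3.75e-05). Likewise r of Egr3 with Egr4 was 0.14 with and 0.60 without the pair, and r of Egr2 with Egr3 was 0.18 with and 0.52 without it. With all libraries the rho of these was 0.37 for each (adjusted permutation p = 0.0181 and 0.0183). Nab2 varied with Egr2 (r = 0.42, rho = 0.51; adjusted permutation p = 0.0108 and 0.00139; r = 0.48 without the 2 farthest libraries) and with Nab1 (r = 0.47, rho = 0.47; adjusted permutation p = 0.00165 and 0.00237; r = 0.44 without the 2 farthest libraries). Nab2 with Egr3 had r = 0.48 and rho = 0.33 (adjusted permutation p = 0.0329 and 0.0298), and without the pair r was 0.23. No relation of Nab1 with Egr1 was detected (r = -0.01, rho = 0.04; adjusted permutation p = 0.943 and 0.825). The labels do not say which mice shared a litter or a dissection, so the correlations do not separate these.

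The genes most like each member were ranked by the same r among 12581 genes with a mean of 100 or more normalised counts, as a description. For Egr1 the top 5 were Egr2, Egr4, the nuclear receptor Nr4a3 (r = 0.72), the MAP kinase phosphatase Dusp6 (0.71) and Rundc1 (0.71). For Egr2 they were Egr1, the synaptic activity-regulated gene Arc (r = 0.76), Fos (0.74), Dnajb5 (0.73) and the nuclear receptor Nr4a1 (0.72). Those for Egr4 included Egr1, Slc22a17 (r = 0.77), Tlnrd1 (0.73) and Mypop (0.72). Immediate-early genes thus filled most of the places for Egr2, and not those named for Egr4 after Egr1. For Egr3 they were Rheb, Galnt11, Senp3, Tspan31 and Usp39, with r of 0.82 to 0.86 over all libraries but 0.46 to 0.59 without the pair.

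The corepressors had other neighbours. For Nab1 the top 5 were the AP-1 family member Fosl2 (r = 0.83), Ppfibp1 (0.79), the adaptor Crkl (0.78), Inpp5f (0.78) and the transcriptional coactivator Ppargc1a (0.78). For Nab2 they were the tyrosine phosphatase Ptpn1 (r = 0.81), Midn (0.80), the clock gene Per1 (0.76), Irf2bpl (0.75) and Dpf1 (0.75). No member appeared in the top 5 of either.

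The members were set beside genes of their pathway. Over both genotypes 0.966% of all genes were called lower with lithium and 1.64% with fluoxetine. The lists were chosen with earlier results of these data known. Of 20 other activity-induced genes, 9 fell and 0 rose with lithium over both genotypes, with a list median of -0.34 log2 units. With fluoxetine 10 fell and 0 rose, with a median of -0.51. Among the called ones, Arc fell by 0.70 with lithium and 1.08 with fluoxetine, Junb by 0.60 and 0.79, and Nr4a3 by 0.60 and 0.88 (limma adjusted p of 0.0081 or less in each). The 6 members had medians of -0.33 and -0.43 in the same comparisons, against 0.00 over all genes in each. Without heterozygous fluoxetine males 3 and 4 the counts of this list were 9 and 11, given without the share of all genes called in that fit. Some genes of the list did not follow: Bdnf was at 0.07 and 0.06, Jun at -0.03 and 0.02, and Maff at -0.28 and 0.28, none of them called. Under vehicle, 6 of the 20 were higher in heterozygous mice (Fosl2, Fosb, Atf3, Nr4a2, Dusp5 and Btg2), against 13.1% of genes called. In the same comparison 9 of 12 olfactory bulb markers were higher, with a median of 1.59 log2 units, and none of the 20 was called with the mean of that list as a covariate.

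**Figure D4:**
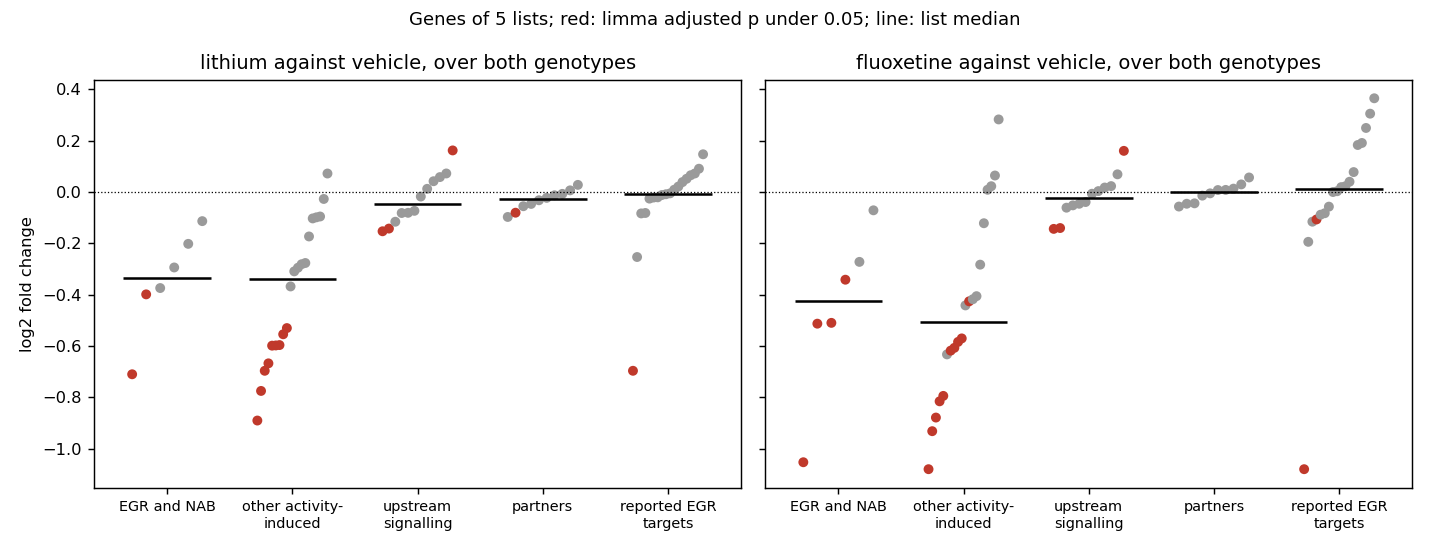
Fitted log2 fold change of each gene with lithium and with fluoxetine over both genotypes, for the 6 members and 4 related lists; red marks a limma adjusted p under 0.05 and the line the list median. The members and the other activity-induced genes lie mostly below 0, with medians of -0.33 and -0.34 for lithium and -0.43 and -0.51 for fluoxetine, while the medians of the other 3 lists lie within 0.05 of 0.

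Of 13 genes upstream of the EGR factors, 12 were tested and Rps6ka4 was not. With each drug 1 rose and 2 fell over both genotypes, where 2.12% of all genes were called with lithium and 3.09% with fluoxetine. The same shares apply to these comparisons of the lists that follow. They are from the fit with all libraries, and counts without the pair are given without a share. The serum response factor coactivator Mrtfa rose by 0.16 log2 units with lithium and with fluoxetine (limma adjusted p = 0.0001 and 0.0002). Serum response factor itself, Srf, fell by 0.14 with each (limma adjusted p = 0.0079 and 0.0111), and Elk3 fell by 0.15 and 0.14 (limma adjusted p = 0.0324 and 0.0431). Without the pair 1 rose and 3 fell with lithium, and 1 rose and 1 fell with fluoxetine. Elk1 was at 0.06 and 0.02, Creb1 at 0.04 and 0.00, and the kinase Mapk3 at -0.12 and -0.05, none of them called.

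Of 10 partners of EGR and NAB proteins, 1 fell with lithium over both genotypes and 0 changed with fluoxetine. That gene was Chd3, an ATPase of the NuRD repressor complex that NAB proteins recruit, at -0.08 log2 units (limma adjusted p = 0.0025). Its relative Chd4 was at -0.01 with each drug, and the coactivators Crebbp and Ep300 at 0.03 and -0.03 with lithium and 0.03 and -0.05 with fluoxetine. Of 18 genes reported as EGR targets, 1 fell with lithium (Arc) and 2 with fluoxetine (Arc, and by 0.11 log2 units the reelin receptor Vldlr, limma adjusted p = 0.0289). Without the pair 2 fell with each drug, Arc and Gadd45b. The list's medians were -0.01 with lithium and 0.01 with fluoxetine, and Cdk5r1 was at -0.01 and -0.08, Syn1 at 0.04 and -0.00, and Gabra4 at 0.05 and -0.12. Arc is also in the activity-induced list, so it is counted in both.

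The marker lists moved with some of these comparisons. Olfactory bulb markers had a list median of 1.90 log2 units for fluoxetine in wild-type mice and -0.40 in heterozygous mice, with 0 of 12 called in each. Without heterozygous fluoxetine males 3 and 4, 6 of 12 were higher with fluoxetine in wild-type mice and the heterozygous median was -0.05. The share of all genes called without the pair is not given for this count or for the blood markers below. Nab2 fell with lithium in heterozygous mice, where blood markers had a median of 0.73 and oligodendrocyte markers -0.41, with 0 of 5 and 0 of 8 called. Of these 10 lithium mice, female 1 had the highest blood list mean (1.53) and the lowest oligodendrocyte list mean (-1.71), in log2 units from all libraries. With lithium over both genotypes blood markers had a median of 0.53, with 0 of 5 called, and 3 of 5 higher without the pair. With the olfactory bulb mean as a covariate, the fluoxetine changes in heterozygous mice were -0.64 for Egr1, -1.18 for Egr2, -0.68 for Egr4 and -0.39 for Nab2, each called (limma adjusted p = 0.00043 to 0.0037). In that fit 12 of 20 other activity-induced genes were also called lower and 0 higher. The share of all genes called there is not given here, so these calls are not shown to be particular to the members. In wild-type mice no member was called with fluoxetine in that fit. The part of the blood and oligodendrocyte markers in the drug results was not tested.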

How the data were processed

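RNA of the prefrontal cortex was sequenced from strand-preserving libraries of polyadenylated RNA, per the labels' protocols. Salmon 0.11.2, R 3.6.0, DESeq2 1.19.11 and GRCm38 are named, with no role or order, per the submitters' processing notes. The authors deposited 1 table of 18088 genes whose values are a signal: counts divided by a size factor of the library. Steps between low values gave back whole counts (100% of values within 0.01 counts; in 3 libraries the step was too close to 1 to show this alone). Library totals are in the report; 0 columns lacked a sample.

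Identifiers were matched to symbols by the GRCm38 annotation (18077 of 18088 matched). Values were analysed as log2(value + 1), on which changes of low genes come out too small. Tests covered the 17901 genes that reached 10 in 4 or more libraries. All 59 libraries entered 1 fit with limma 3.58.1 (R 4.3.3), in which every combination of genotype, drug and sex had its own mean (12 means, 47 residual degrees of freedom, trend on the mean); comparisons gave both sexes equal weight. P-values were adjusted by Benjamini-Hochberg within each of 15 comparisons, and the limma step was tested on simulated data. Correlations used 100000 two-sided permutations within groups. The members and lists were chosen with earlier results of these data known. By rule, the 6 members, the 5 genes most like each, and the called and up to 4 other genes of each list are named, except 2 genes not reported here; Nemp1, Stat6 and Gm16229 were named for their overlap with Nab2. Alternatives were a pseudocount of 5, no filter, a filter of 100, TMM factors, a replicate block, the groups compared alone, edgeR 4.0.16 on the recovered counts, the mean of the olfactory bulb markers as a covariate, a fit that omitted heterozygous fluoxetine males 3 and 4, and leaving out each library. No promoter of Egr1 is shown.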

Additional observations from a re-analysis of the deposited data

Results flagged for a closer look

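Of 72 tests of a sample far from the others in its group of genotype, drug and sex, 7 found one, where chance flags about 1 in 20 groups. Egr3 in heterozygous fluoxetine male 3 was the farthest, at 12221 normalised counts, with the next male at 3017. Egr2 was high in heterozygous lithium female 2, at 409, and in wild-type fluoxetine male 3, at 154. Nab1 was low in heterozygous lithium male 4, at 750.1, and high in heterozygous vehicle female 2, at 1045. Nab2 was low in wild-type fluoxetine female 2, at 775, and high in wild-type lithium male 3, at 1130.3.

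Nab1 differed by sex under 2 contrasts, female minus male: by -0.41 log2 units for genotype under vehicle and by 0.42 for lithium in heterozygous mice. Of all genes, 16% and 3.07% were called in these tests, which share the heterozygous vehicle mice. Neither call held with the olfactory bulb covariate (adjusted p = 0.968 and 0.0692) or with the groups compared alone (adjusted p = 0.0734 and 0.122), and single libraries left out also ended each.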

How the results depend on the processing

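Nab2 with lithium in heterozygous mice, and Egr2 and Nab2 with both drugs over the genotypes, passed under each alternative run. The count of members called changed elsewhere. It is given without the share of all genes called in each refit, so it does not show a change particular to the members. With fluoxetine in heterozygous mice it was 4, and 0 when the groups compared were fitted alone; leaving out 1 library gave 4 to 5. With fluoxetine in wild-type mice it was 0, and 1 with a filter of 100, 1 with edgeR, 2 without heterozygous fluoxetine males 3 and 4, and 4 with the groups compared alone; leaving out 1 library gave 0 to 1 (Egr2, without wild-type fluoxetine female 2 or vehicle female 1, female 4 or male 2; adjusted p = 0.0299 to 0.0440). With lithium in heterozygous mice it was 1, and 3 with the olfactory bulb covariate and 2 without the pair or with the groups compared alone; leaving out 1 library gave 1 to 2 (Egr4 at -0.50 without heterozygous vehicle female 2). With lithium in wild-type mice it was 0, and 1 with the covariate or without the pair; leaving out 1 library gave 0 to 1 (Nab2 at -0.36 and -0.38 without wild-type lithium female 4 or male 3). With lithium over both genotypes it was 2, and 4 with a filter of 100, TMM factors, the covariate or without the pair; leaving out 1 library gave 2 to 4, since Egr3 passed without heterozygous lithium male 2 or 5, heterozygous vehicle female 2 or male 2, wild-type lithium female 4 or male 5 or wild-type vehicle female 1 or male 1, and Egr4 without heterozygous lithium female 5 or male 2, heterozygous vehicle female 2 or male 2, wild-type lithium female 2 or 4 or male 3 or wild-type vehicle female 1 or 2 or male 2. The Nab1 counts by sex were 1, and 0 with the covariate or the groups compared alone; leaving out 1 library gave 0 to 1 in each. For genotype by sex this was heterozygous vehicle male 3 or 4 or wild-type vehicle female 4 (adjusted p = 0.0589 to 0.0666), and for lithium by sex 12 libraries (adjusted p = 0.0573 to 0.127). Between the sexes all groups are compared, so no such separate fit exists. The number of pairs of members correlated by Pearson's r was 6, and 10 without the pair; by Spearman's rho it was 9 of 15 with all libraries. Values near 0 changed sign: Nab1 between genotypes under vehicle was -0.0049 with the covariate; the r of Egr1 with Nab1 was 0.10 without the pair and 0.067 with the covariate, and that of Egr3 with Nab1 was -0.13 without the pair. With 1 library left out, Egr2 between genotypes under lithium ran from -0.037 to 0.18, Egr3 for lithium against fluoxetine from -0.28 to 0.0198 (0.0198 without heterozygous fluoxetine male 3), and Egr2 for lithium by genotype from -0.17 to 0.0446. Libraries of the same replicate number were not more alike on average. The mean correlation of deviations was -0.0067 between libraries of the same number and 0.0017 otherwise. Of 59 libraries, 26 were closer to their own number. Single pairs of the same number in compared groups ran from -0.591 to 0.392. These means cannot show whether mice of particular groups shared a litter or batch. With the replicate block the counts of members called were the same except that Egr3 was added with lithium over both genotypes (adjusted p = 0.0462), and all genes called with fluoxetine in heterozygous mice numbered 715. The causes of these changes were not tested. Egr2 had the lowest counts of the members and the widest errors.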

Other observations

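The ratio of Egr3 to Egr1 in the same library was 4.69 in heterozygous fluoxetine male 3, while the median of the heterozygous fluoxetine mice was 0.565, and the highest was 0.622 in heterozygous lithium mice and 0.725 in heterozygous vehicle mice. The 18 genes reported as EGR targets stood 0.89 log2 units above the mean of all libraries in that mouse and 0.42 above it in heterozygous fluoxetine male 4. The other activity-induced genes stood 0.31 above it in male 3 and 0.14 below it (-0.14) in male 4. In heterozygous vehicle mice the same activity list ran from -0.07 to 0.90 and the 6 members from -0.06 to 0.54.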
